A study of Mus musculus with 6 samples.

Results

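Hox genes are the homeobox transcription factor genes that lie in the 4 clusters HoxA, HoxB, HoxC and HoxD, and they were read here in 2 fat depots of mice. Members were chosen by name, as probe sets whose single platform gene symbol is Hoxa, Hoxb, Hoxc or Hoxd followed by a number. This gave 33 genes, read by 48 probe sets, of 18193 genes with a single symbol on the array. Hox genes for which no probe set carried the symbol alone were not analysed here.

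Both tissues came from untreated male C57BL/6 mice aged 10 to 12 weeks and kept at ambient temperature. The brown group was interscapular brown fat, which burns fuel to make heat, and the white group was epididymal white fat, which stores it, with 3 arrays each from 3 mice. All brown tissue was from the upper back and all white tissue from beside the testis, so the type of fat and its place in the body cannot be told apart. Each sample was run on its own Affymetrix mouse 430_2 array, on which each probe set gives 1 signal and a call of present, marginal or absent.

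In vertebrates Hox genes set the identity of cells along the head-to-tail axis. Genes at the 3′ end of each cluster, with low paralogue numbers, are switched on early and towards the head, and genes at the 5′ end, with high numbers, later and towards the tail. Genes with the same number in different clusters are paralogues of 1 ancestral gene. Adult connective tissue, including fat, keeps a record of this code, and retinoic acid, Trithorax and Polycomb proteins are known to switch the clusters on or keep them silent.

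The label of each tissue was checked against markers. All 5 brown adipocyte markers were higher in brown and all 4 white adipocyte markers were higher in white, and Ucp1 had no present call in white. Probe sets called present made up 35.6% to 37.5% of each brown array and 45.2% to 45.8% of each white array. The actin 3′/5′ ratio, which rises when RNA is degraded, was 1.36 to 2.24 on brown arrays and 1.19 to 1.73 on white arrays. Signals below are quantile-normalised and on a linear scale. Differences are of mean log2 signal, brown minus white, and a gene is called where the adjusted p of limma over all 10264 tested genes was under 0.05. A fold given as "at least" marks that the dimmer tissue was absent on all its arrays. It is a point value and no bound on the spread between arrays or on other processing.

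Fewer Hox genes were detected in brown fat than in white fat, and all but 1 of the detected genes had a paralogue number of 8 or less. With a gene counted as detected where a probe set was present on at least 2 of 3 arrays, 8 of 33 Hox genes (24.2%) were detected in brown and 14 (42.4%) in white. Over all genes on the array these shares were 48.7% in brown and 57.1% in white. The 8 genes detected in brown were Hoxa2, Hoxa3, Hoxa4, Hoxa5, Hoxb3, Hoxc5, Hoxc8 and Hoxd8, and all 8 were detected in white too. White fat had in addition Hoxb1, Hoxb6, Hoxb7, Hoxc4, Hoxc6 and Hoxd13. These calls did not always follow the signal. On their detected probe sets, Hoxb1 (mean 42.3 in brown, 23.1 in white), Hoxb7 (68.0 and 47.4, with overlapping arrays) and Hoxd13 (48.1 and 37.7) were brighter in brown. The means of Hoxb6, Hoxc4 and Hoxc6 were higher in white, with 351 in brown and 392 in white for Hoxc6.

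**Figure D1:**
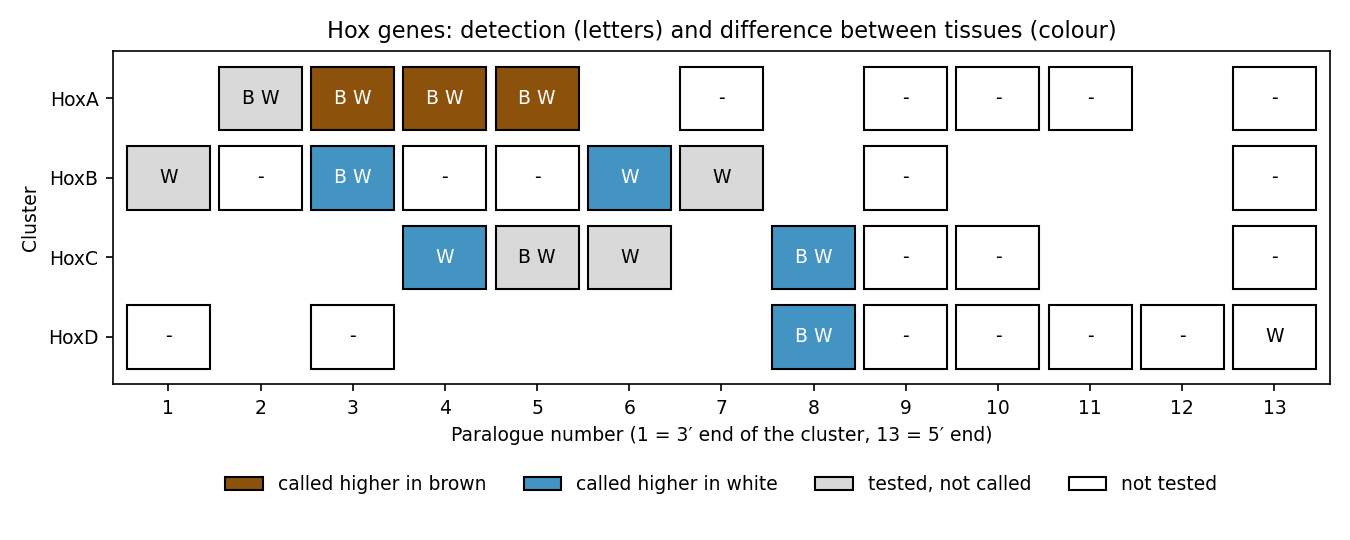
Map of the Hox genes, with the cluster down the page and the paralogue number from left to right. Letters mark detection in brown (B) or white (W), a dash detection in neither, and empty places hold no gene analysed here. The 3 genes called higher in brown are neighbours in HoxA, and the 5 called higher in white lie in HoxB, HoxC and HoxD.

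By single array, 9, 8 and 8 Hox genes had a present call in brown, against 14, 14 and 14 in white. The counts did not overlap, and the exact permutation p was 0.1 (two-sided, n = 3 per tissue), the smallest that 3 against 3 arrays can give. The HoxA genes made up 4, 4 and 4 of these in brown and 4, 5 and 4 in white. The other clusters gave 5, 4 and 4 in brown and 10, 9 and 10 in white. The share of all genes with a present call moved the same way, at 48.7% to 50.3% on brown arrays and 57.4% to 57.7% on white arrays, and its part in the Hox counts was not tested.

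**Figure D2:**
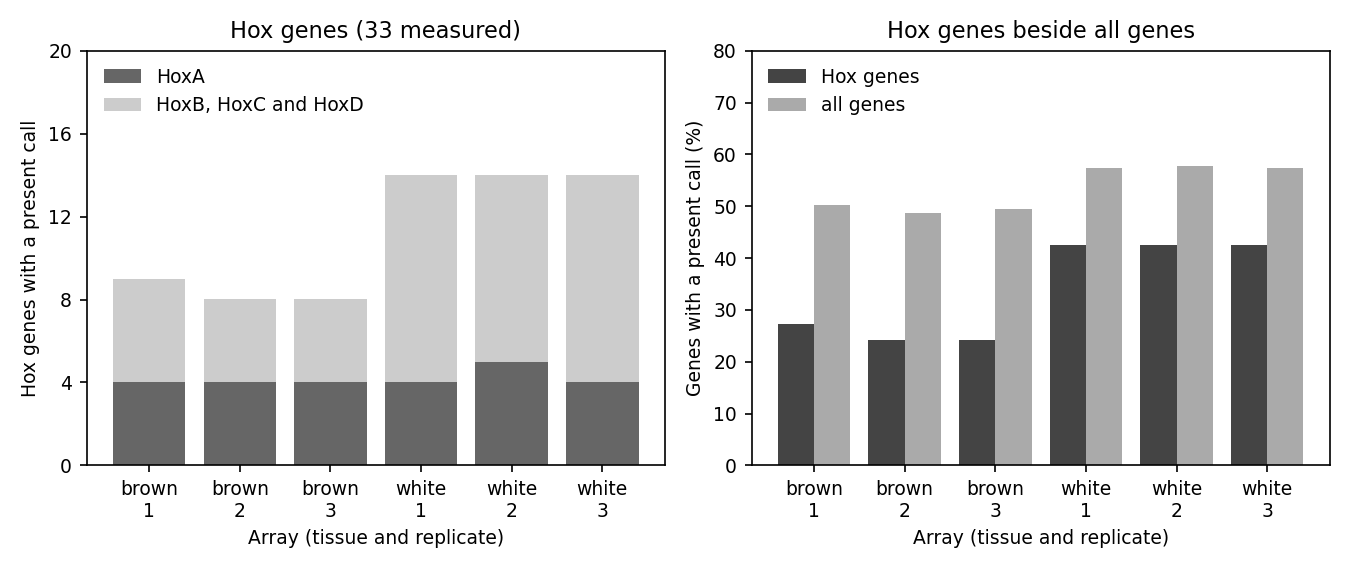
Left, the number of Hox genes with a present call on each array, split into HoxA and the other 3 clusters. Right, the percentage of the 33 Hox genes and of all 18193 genes with a present call. Brown arrays hold 8 or 9 Hox genes and white arrays 14, with 4 or 5 of HoxA in each.

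The filter for the comparison, which 13 Hox genes passed, asked for a present call on at least 3 of the 6 arrays. Of these 13, 3 were called higher in brown and 5 were called higher in white, while 5 were not called. Over all tested genes 28.2% were called higher in brown and 32.7% higher in white, 61% together, against 61.5% of the tested Hox genes, so the number of calls was near the background. With the deposited scaling 15% of all genes were called higher in brown and 56.1% higher in white, and with spike-in scaling 13.4% were higher in brown and 52.1% in white. The 8 Hox calls stayed, and Hoxc6 joined those higher in white. The median difference was -0.02 over the tested Hox genes and -0.04 over all tested genes. Hoxa3, Hoxa4 and Hoxa5 were called higher in brown, and Hoxb3, Hoxb6, Hoxc4, Hoxc8 and Hoxd8 higher in white. Of the genes not called, Hoxb1 (0.90), Hoxc5 (0.53) and Hoxb7 (0.41) had differences above 0, and Hoxc6 (-0.16) and Hoxa2 (-0.02) below 0. Whether direction differed between clusters was not tested. Of the 13, 4 (Hoxb6, Hoxb7, Hoxc4 and Hoxc6) had passed the filter through white arrays alone. Among the 992 genes of the array that did so, 65.2% were called higher in white. Among the 9159 genes with a present call in both tissues, 30.3% were called higher in brown and 29.6% higher in white. The arrays of brown and white did not overlap for 9 of the 13 Hox genes, and for 67.3% of all tested genes. Because these are bulk samples, fewer cells of a type and less RNA per cell cannot be told apart.

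Upstream sequence from RefSeq's promoter table (GRCm38.p6), which holds 4 of the 8 called genes, is shown for 3 of them, 1 higher in brown and 2 higher in white. Each line is the 250 bases before the start, 5′ to 3′ on the strand of the gene, with every CG in capitals, because Polycomb and Trithorax proteins act on promoters rich in CG. Hoxa5 (higher in brown) is at chr6:52204588-52204837 on the minus strand, Hoxc4 (higher in white) at chr15:103034145-103034394 on the plus strand and Hoxd8 (higher in white) at chr2:74704365-74704614 on the plus strand.
Hoxa5: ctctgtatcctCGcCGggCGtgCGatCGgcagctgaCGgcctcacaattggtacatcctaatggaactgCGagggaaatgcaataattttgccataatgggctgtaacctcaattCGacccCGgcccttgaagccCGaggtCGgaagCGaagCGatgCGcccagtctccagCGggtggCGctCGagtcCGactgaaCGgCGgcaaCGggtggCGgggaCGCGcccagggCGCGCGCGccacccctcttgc
Hoxc4: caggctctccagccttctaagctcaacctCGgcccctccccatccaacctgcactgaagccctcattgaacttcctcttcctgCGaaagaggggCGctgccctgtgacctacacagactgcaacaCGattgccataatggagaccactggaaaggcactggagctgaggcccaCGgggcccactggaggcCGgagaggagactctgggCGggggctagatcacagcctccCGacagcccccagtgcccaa
Hoxd8: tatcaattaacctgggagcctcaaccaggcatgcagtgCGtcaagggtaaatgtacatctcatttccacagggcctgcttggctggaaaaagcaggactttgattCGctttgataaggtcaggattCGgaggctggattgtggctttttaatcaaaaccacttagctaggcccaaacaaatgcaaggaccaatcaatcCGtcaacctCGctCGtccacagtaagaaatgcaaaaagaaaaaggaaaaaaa
The Hoxa5 stretch holds 28 CG, the Hoxc4 stretch 8 and the Hoxd8 stretch 6. At least 28 CG were found in 7.61% of all 32851 promoter stretches of that length in the table, at least 8 in 43% and at least 6 in 50.4%. The 24 stretches of 22 Hox genes in the table had a median of 12.5 CG and the full table a median of 6, and 92.1% of all stretches held at least 1. Hoxa3, also higher in brown and in the table, had 18 CG. The counts describe the sequence only and were not set against the signals.

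Within HoxA, the neighbouring genes Hoxa3, Hoxa4 and Hoxa5 were higher in brown. Hoxa4, an anterior gene that helps pattern the neck and upper trunk, had signals of 194, 208 and 207 in brown, against 25.1, 40.1 and 53.7 in white. The lowest brown signal was more than 3 times the highest white one, and the gene was present on all 6 arrays. Its difference was 2.42 (adjusted p = 2.15e-05), or 5.37-fold. A second probe set of Hoxa4, of the kind that may bind several transcripts, was dim and scattered, with 31.7, 3.15 and 49.4 in brown and 12.7, 0.548 and 21.1 in white, and was not called (adjusted p over probe sets = 0.36). The probe sets used to test Hoxa3 and Hoxc6, and the further probe sets of Hoxa5 and Hoxd8, may also bind several transcripts. Over all 19819 tested probe sets 24.6% were called higher in brown and 29.9% higher in white, 54.5% together.

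Hoxa5, which is known for its part in lung and upper-trunk development and in mouse fat cell differentiation, had signals of 363, 327 and 372 in brown, against 135, 127 and 140 in white. These ranges were far apart and all 6 arrays had a present call. The difference was 1.40 (adjusted p = 2.76e-06), or 2.64-fold. A further probe set of Hoxa5 was brighter but called absent on every array, and ran the same way (1.78).

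Hoxa3, which patterns the throat, thymus and parathyroid, had signals of 202, 130 and 187 in brown, against 105, 58.9 and 65.7 in white (difference 1.20, adjusted p = 0.00201). Every brown array was above every white array, with the gap smallest between brown replicate 2 and white replicate 1. A different Hoxa3 probe set gave 39.3, 51.4 and 59.2 in brown and 14.9, 35.9 and 24.8 in white (1.06, adjusted p over probe sets = 0.034). Of the remaining Hoxa3 probe sets, 1 was present on 1 white array alone, and 1 was absent on all arrays with a difference of opposite sign (-0.97). In RefSeq the span of Hoxa3 covers Hoxa4, Hoxa5 and Hoxa6, so which transcript each of these probe sets reads is uncertain.

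Hoxa2, the next gene towards the 3′ end, which patterns the hindbrain and the second pharyngeal arch, was detected in both tissues at a low level. Its signals were 35.8, 42.9 and 26.0 in brown and 34.7, 36.2 and 32.9 in white. The groups overlapped, and the difference was -0.02 with a standard error of 0.293 (adjusted p = 0.966). From Hoxa7 to the 5′ end, none of Hoxa7, Hoxa9, Hoxa10, Hoxa11 and Hoxa13 was detected in either tissue.

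**Figure D3:**
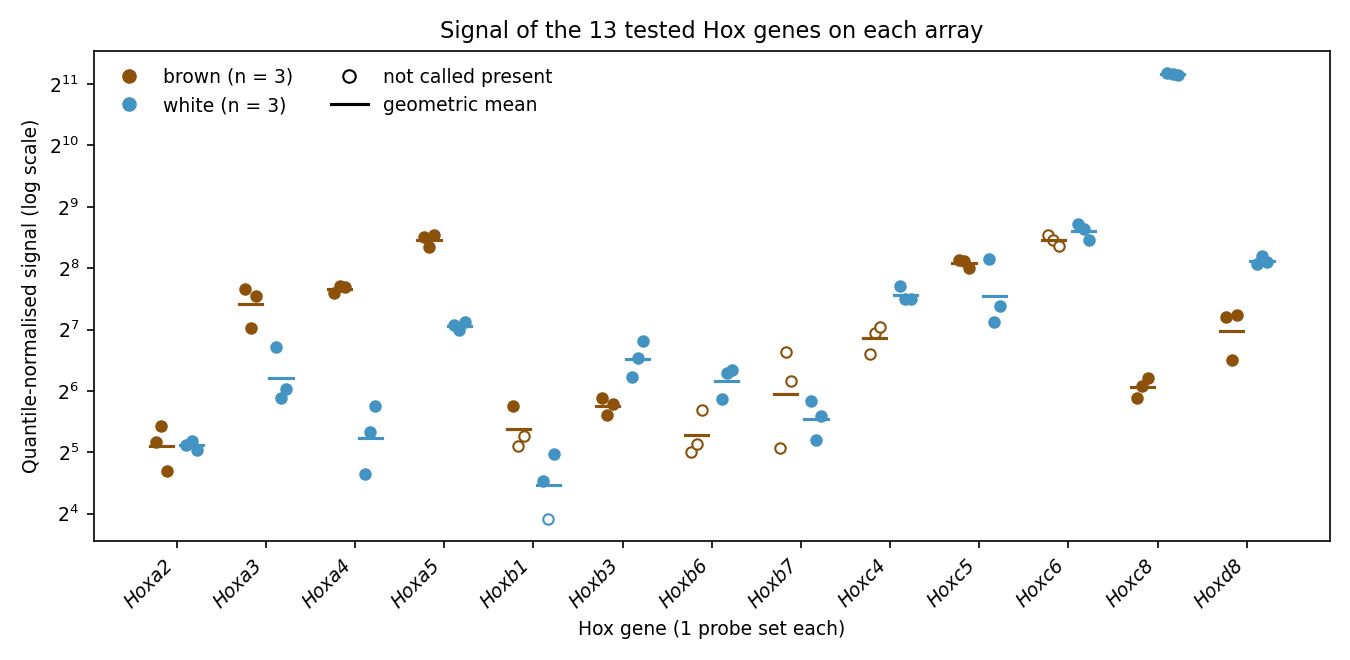
Quantile-normalised signal of the 13 tested Hox genes on each array, on a log2 axis, with brown arrays left of white ones for each gene. Filled points were called present, open points marginal or absent, and lines are geometric means. Hoxc8 lies between 59.0 and 74.2 on brown arrays and between 2262 and 2321 on white arrays.

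Hoxc8 differed most among the tested Hox genes. It is a mid-trunk gene that patterns the ribs and lower thoracic vertebrae, and is known in mouse and human fat as a marker of white depots. Its signals were 59.0, 67.6 and 74.2 in brown, against 2321, 2292 and 2262 in white. All 6 arrays had a present call, and white exceeded brown by 34.4-fold (difference -5.10, standard error 0.10, adjusted p = 4.56e-10). With 64 signal units added before taking logs the difference was -4.17.

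The HoxD paralogue with the same number, Hoxd8, ran the same way. Its signals were 147, 91.0 and 151 in brown, against 267, 293 and 275 in white (-1.14, adjusted p = 0.000518). Its other probe set gave 87.6, 71.4 and 63.9 in brown, all called absent, and 146, 200 and 180 in white, at least 2.36-fold higher in white (adjusted p over probe sets = 0.000255). Both probe sets kept the tissues apart. Of paralogue group 8, Hoxb8 shares its probe set with Hoxb7, and that probe set was absent on all arrays.

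Hoxc4, a neck and upper-thorax gene at the 3′ end of HoxC, was absent on all brown arrays, at 97.2, 122 and 131. It was present on all white arrays, at 209, 182 and 180, at least 1.63-fold higher in white (-0.71, adjusted p = 0.00269). It and Hoxa4 are paralogues and ran in opposite directions, and those signals come from different probe sets, so only the directions can be set side by side.

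The remaining tested HoxC genes were not called. Hoxc5 had 282, 277 and 258 in brown and 285, 140 and 166 in white. White replicate 1 lay with the brown arrays, the difference was 0.53 (adjusted p = 0.0649), and without that array it was 0.84 and called (adjusted p = 0.000877). It was 0.32 without white replicate 2 (adjusted p = 0.232) and 0.014 with the deposited scaling (adjusted p = 0.958). A further Hoxc5 probe set was absent on all arrays (-0.12), and another was present on 1 brown array alone (0.37). Brown and white arrays overlapped on both, and neither was tested. Hoxc6, a thoracic gene, had 371, 352 and 331 in brown, called absent, and 424, 401 and 353 in white, called present. Its ranges overlapped (-0.16, adjusted p = 0.218), as did those of another of its probe sets (-0.19). With the deposited scaling Hoxc6 was called higher in white (-0.61, adjusted p = 0.000314).

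Within HoxB, both called genes were higher in white. Hoxb3, which patterns the hindbrain, had 58.7, 48.8 and 55.1 in brown, against 74.9, 92.4 and 113 in white (-0.77, adjusted p = 0.00948). It was present on all arrays and the groups were apart, but the call was lost without white replicate 3 (adjusted p = 0.0531). The span of Hoxb3 covers Hoxb4 in RefSeq, so the transcript is uncertain. In the authors' series table, whose tissue columns as a whole run opposite to the array files, Hoxb3 did not run opposite.

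Hoxb6, an upper-trunk gene, had 32.1, 35.1 and 51.4 in brown, where it was absent, against 58.5, 77.9 and 81.4 in white, where it was present. White was at least 1.86-fold higher (-0.89, adjusted p = 0.0133), and the call was lost without white replicate 2 (0.0538) or white replicate 3 (0.0596). Hoxb7 was called present on white arrays alone, yet its signals overlapped, at 33.4, 99.3 and 71.3 in brown and 57.1, 36.7 and 48.4 in white (0.41, adjusted p = 0.378). Leaving out brown replicate 1 made it a call towards brown (0.86, adjusted p = 0.026), and with the deposited scaling its sign turned (-0.07).

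Hoxb1, the most 3′ gene of its cluster and a hindbrain gene, had 54.2, 34.2 and 38.6 in brown and 23.0, 15.1 and 31.3 in white. It was present on 1 brown and 2 white arrays, with every brown signal above every white one (0.90, adjusted p = 0.0545). It was called without brown replicate 2 (0.0477), without white replicate 3 (0.037), with 64 units added (0.0378) or without the variance trend (0.0419). It was not called without brown replicate 1 (0.161) or white replicate 2 (0.174), and with the deposited scaling its difference was 0.44 (adjusted p = 0.289).

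**Figure D4:**
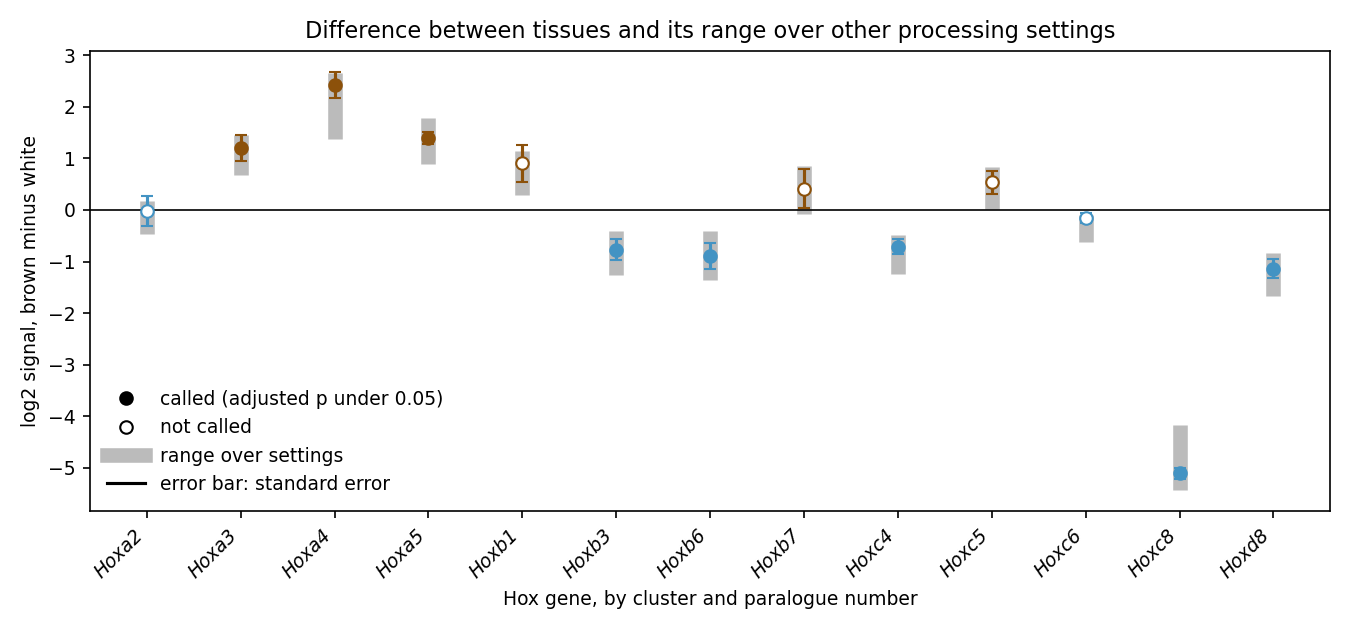
Difference in log2 signal (brown minus white) of the 13 tested Hox genes with its standard error, filled where called, and grey bars for the range over the other ways of processing the array files. The bars of the 8 called genes stay on 1 side of 0, from Hoxa4 at 2.42 to Hoxc8 at -5.10.

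Genes at the 5′ ends of the clusters were not detected, or were at the edge of detection. Of the 14 measured genes with paralogue numbers 9 to 13, 0 were detected in brown and 1, Hoxd13, in white. Hoxd13, a gene of digits and the urogenital tract, had 51.4, 41.3 and 51.5 in brown, called absent, and 41.2, 35.5 and 36.4 in white, with a present call on white replicates 1 and 3. Its signal was lower in white in spite of those calls. By position, 4 of 10 measured genes of paralogues 1 to 4 were detected in brown and 6 in white, and 4 of 9 of paralogues 5 to 8 in brown and 7 in white.

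Altogether 19 Hox genes were detected in neither tissue, and 19 of their 22 probe sets were absent on every array. Beside the HoxA genes named above they were Hoxb2, Hoxb4, Hoxb5, Hoxb9 and Hoxb13, Hoxc9, Hoxc10 and Hoxc13, and Hoxd1, Hoxd3, Hoxd9, Hoxd10, Hoxd11 and Hoxd12. Of 132 calls 2 were present, for Hoxa10 and Hoxb5 on 1 white array each, and Hoxa11 had a marginal call. Their signals were 1.56 to 135 on brown arrays and 0.889 to 166 on white arrays. Among them, Hoxb5, whose protein acts in the upper trunk, had 5.18, 6.02 and 3.04 in brown, against 55.7, 71.6 and 76.6 in white, with a present call on 1 of the 3 white arrays, at least 8.73-fold higher in white. Hoxd9, next to Hoxd8 in the cluster, had 72.0, 52.2 and 53.6 in brown, against 135, 123 and 108 in white, all called absent. Without the detection filter 18.6% of all 18193 genes were called higher in brown and 19.2% higher in white. Hoxb5 (-3.88, adjusted p = 0.000189) and Hoxd9 (-1.05, adjusted p = 0.00261) were among those higher in white. Hoxd12 was then called higher in brown (3.56, adjusted p = 0.00132), from signals of 18.5 to 20.7 in brown and 1.20 to 2.11 in white, all called absent.

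Non-coding genes within the clusters have symbols of their own, and where they overlap a Hox gene it is uncertain which transcript a probe set reads. Hoxd3os1, which overlaps Hoxd3 beside Hoxd8, had 5.91, 37.6 and 25.2 on 1 probe set in brown, all absent, against 94.3, 108 and 99.0 in white, all present. It was at least 5.40-fold higher in white (adjusted p = 0.00376), and its other probe set was absent on every array. Gm38462 is a non-coding gene that overlaps Hoxd8 and Hoxd3 in RefSeq. Its signals were 25.3, 14.2 and 12.3 in brown, against 57.1, 31.9 and 91.6 in white (-1.75, adjusted p = 0.00713). Hoxd8, in the middle of HoxD, was also called higher in white, as were 32.7% of all tested genes. Because Gm38462 overlaps Hoxd8, their signals may not be separate. Other non-coding genes of HoxD, such as Haglr, were not looked up. Hoxa11os and Hoxb5os were absent on all arrays, and so was Evx1os, which lies outside the span of the HoxA genes.

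Hox proteins bind DNA with partners of the TALE family, the Pbx, Meis and Pknox proteins. Of 9 such genes 7 were tested, 0 were called higher in brown and 1 was called higher in white (median -0.24). Over all tested genes 28.2% were called higher in brown and 32.7% higher in white. The called gene was Meis2, with 105, 77.4 and 83.8 in brown, against 108, 128 and 154 in white (-0.55, adjusted p = 0.0289). The groups were only just apart, and the call of Meis2 was lost in 4 of the 6 fits with 1 array left out, those without brown replicate 2 (adjusted p = 0.0756), brown replicate 3 (0.0692), white replicate 2 (0.0699) or white replicate 3 (0.123). Pbx2 (-0.24, adjusted p = 0.167) and Pknox1 (-0.24, adjusted p = 0.233) were not called. With the deposited scaling and with spike-in scaling 5 of the 7 were called higher in white, beside 56.1% and 52.1% of all tested genes. Those scalings move the median of all tested genes to -0.50.

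Of 9 genes of retinoic acid and of cluster boundaries 6 were tested, with 2 called higher in brown and 3 higher in white (median -0.19). These counts stand beside 28.2% and 32.7% of all tested genes. Aldh1a1 and Aldh1a2 make retinoic acid, the vitamin A derivative that switches on 3′ Hox genes in the embryo. Aldh1a1 had 86.4, 62.9 and 83.0 in brown, called absent, against 1952, 1626 and 2250 in white, at least 25.1-fold higher in white (adjusted p = 5.56e-09). Aldh1a2 was at least 16.5-fold higher in white (adjusted p = 1.47e-06). In the other direction, Rarb, a retinoic acid receptor and itself a target of retinoic acid, had 231, 185 and 180 in brown, against 42.0, 30.3 and 39.5 in white (2.42, adjusted p = 2.74e-06). Gmnn, whose product geminin is known to bind Hox and Polycomb proteins, had 401, 416 and 389 in brown, against 55.4, 45.6 and 40.5 in white (3.10, adjusted p = 7.76e-08). Gmnn and Rarb each had a marginal call on 1 white array. The boundary protein gene Ctcf was called lower in brown (-0.33, adjusted p = 0.0276). That call was lost in 4 of the 6 fits with 1 array left out, those without brown replicate 1 (adjusted p = 0.0681), brown replicate 3 (0.0615), white replicate 2 (0.0796) or white replicate 3 (0.0987). It was also lost with the mean over probe sets (-0.15, adjusted p = 0.289). Rarg was not called (-0.06). Ctcf is the smallest of the 5 called members of this list. Cyp26a1 and Cyp26b1, which break retinoic acid down, were absent on all arrays.

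Polycomb genes, whose products keep Hox clusters silent, were called higher in brown for 2 and higher in white for 12 of 22 tested members (median -0.34), beside 28.2% and 32.7% of all tested genes in those directions. Cbx6 had 113, 105 and 122 in brown, against 369, 452 and 339 in white (-1.76, adjusted p = 2.26e-06). Rnf2, the ubiquitin ligase of the complex (-0.82), and Rbbp4, a histone-binding subunit (-0.82), were also higher in white. Pcgf5 was higher in brown, with 377, 393 and 369 there and 170, 142 and 141 in white (1.34, adjusted p = 4.71e-06), and so was Yaf2 (0.45). Jarid2 (-0.07) and Pcgf3 (0.23) were not called, and neither were the core subunits Ezh2 (0.16), Eed (0.17) and Suz12 (-0.002), the last 3 and Yaf2 being named after their values were seen. With the deposited scaling 1 was higher in brown and 18 in white, beside 15% of all genes higher in brown and 56.1% higher in white, and Yaf2 was not called (0.07, adjusted p = 0.515).

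Trithorax and MLL complex genes, whose products keep Hox genes active, were called higher in brown for 4 and higher in white for 4 of 13 tested members (median -0.14), near the 28.2% and 32.7% of all tested genes. Dpy30, a core subunit of these complexes (1.04), and the methyltransferase gene Dot1l (0.70) were higher in brown. Psip1, which tethers the MLL complex to chromatin, was at least 2.91-fold higher in white (adjusted p = 0.000211). Mllt3, a partner of MLL in leukaemia fusions, was also higher in white (-0.62). That call was lost with the mean over the Mllt3 probe sets (-0.22, adjusted p = 0.306). Where presence on all 6 arrays was asked for, another Mllt3 probe set was used and the sign turned (0.17, adjusted p = 0.529). Kdm6b (0.54) and Kmt2b (-0.14) were not called. With the deposited scaling 2 were higher in brown and 8 in white, beside 15% and 56.1% of all genes. Dot1l was not called with spike-in scaling (0.25, adjusted p = 0.171). Without brown replicate 3, white replicate 1 or white replicate 3 the number higher in white was 2 each time.

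**Figure D5:**
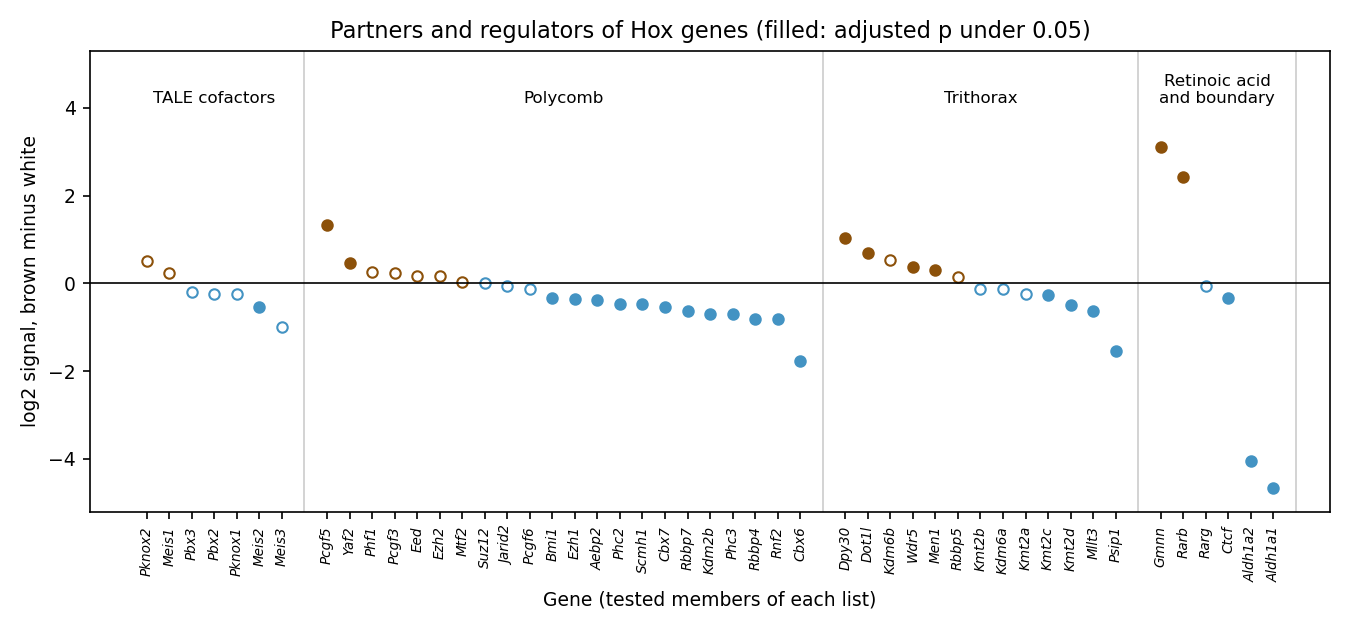
Difference in log2 signal (brown minus white) of the tested members of 4 lists of Hox partners and regulators, filled where called. Gmnn at 3.10 and Rarb at 2.42 lie at the top, and Aldh1a1 at -4.65 and Aldh1a2 at -4.04 at the bottom.

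Cdx genes, which activate the central Hox genes in the embryo, were absent or dim. Cdx1 and Cdx2 were absent on all arrays. Cdx4 had 21.3, 25.5 and 18.0 in brown and 17.7, 19.1 and 15.0 in white (adjusted p = 0.515). It was called present on brown replicates 2 and 3 and white replicate 3. The Evx genes at the 5′ ends of HoxA and HoxD, and Gsx1, Gsx2 and Pdx1, the genes of the sister ParaHox cluster, were absent on all arrays.

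Markers of other cells moved with the tissues and so with every Hox difference above. All 7 macrophage markers were higher in white, with a summed signal of 2381 to 2891 on brown arrays and 16629 to 17447 on white arrays. All 6 mesothelial markers were higher in white, with sums of 185 to 223 in brown and 3287 to 3338 in white, and Msln, Upk3b, Krt19 and Slpi had no present call in brown. Of 7 fibroblast and progenitor markers 6 were higher in white, with sums of 7375 to 7979 in brown and 28937 to 29517 in white, while Fn1, Pi16 and Dpp4 had no present call in brown. Endothelial markers were higher in white for 3 of 5, with sums of 1621 to 1843 in brown and 2340 to 2451 in white, and smooth muscle markers for 3 of 4 tested, with sums of 1101 to 1273 in brown and 2864 to 3006 in white. Des, the remaining tested marker, ran the other way, with brown at least 3.68-fold above white (adjusted p = 0.000164). Skeletal muscle markers were higher in brown for 2 of 3 tested, with sums of 1193 to 1640 in brown and 607 to 758 in white. Myl1 made up most of the brown sum (mean 1011 in brown, 306 in white), and Casq1 was only just called (adjusted p = 0.049). The remaining tested marker, Acta1, was lower in brown but not called (-2.51, adjusted p = 0.113). Schwann cell markers were higher in brown for 2 of 3, with sums of 875 to 960 in brown and 203 to 215 in white. S100b made up most of that brown sum (mean 567 in brown, 22.3 in white), and Sox10 was not called (0.39). Of 4 measured lymphocyte markers 1 was tested, the immunoglobulin gene Ighm, and it was higher in white, with a mean of 118 in brown and 4891 in white. It made up most of the sum of the list, which was 151 to 244 in brown and 4618 to 5565 in white, while Cd3e and Cd3g were absent on all arrays. The 4 measured markers of epididymis epithelium were absent on all arrays of both tissues. The part of these cells in the Hox signals was not tested.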

How the data were processed

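Per the file headers, the deposited array files hold, per probe set, a linear signal intensity with its detection call and detection p-value. Their software and scaling: not given in the sources used here. A deposited series table holds signal intensities too, made by unstated steps. Its tissue columns run opposite to the array files (correlation of log2 differences -0.87 over 19819 probe sets), so it served only as an alternative. Its centring and the cause of its opposite direction stay unknown.

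Of 45101 probe sets, 64 controls were left out. Of the 45037 others, 34945 had 1 symbol in the platform annotation, 932 several and 9160 none. Since the 2% trimmed means differed by over 10%, log2 signals were quantile-normalised. The 1 signal of 0 was set to 0.1. The 19819 probe sets present on at least 3 of 6 arrays were fitted with limma 3.58.1 in R 4.3.3 (lmFit, eBayes with a trend). For 10264 genes the probe set with the highest mean log2 signal was used, with Benjamini-Hochberg adjustment over these genes and a threshold of 0.05. "At least" folds stand where the dimmer tissue was absent on all arrays. Their base is the mean, over the dimmer arrays, of the probe set's own signal or the lowest present signal, whichever is higher. Where the own signal was higher on every dimmer array, as for Hoxb6, Hoxc4, Aldh1a1 and Psip1, the value equals the plain fold.

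The Hox genes and all lists were chosen with earlier results of these data known. Every Hox gene detected on at least 2 of 3 arrays of a tissue was named with its signals, with up to 4 called and 2 uncalled members of each list. Genes beyond this rule (Ctcf, Yaf2, Ezh2, Eed and Suz12) were added after their values were seen. The signals of the undetected Hoxb5, Hoxd9 and Hoxd12 were also given beyond it, for their calls without the detection filter. The non-coding genes Gm38462 and Evx1os were added by name. The labels do not tie replicate numbers to mice. Deviations of arrays with the same number correlated at 0.017, -0.014 and -0.046, so they were not paired. With 3 arrays per tissue, the number of arrays limits the precision. Alternatives were other scalings, filters, offsets, probe set choices, the variance trend, the replicate block, the series table and each array left out. The alternatives for the lists and their genes were added after the data were seen.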

Additional observations from a re-analysis of the deposited data

How the results depend on the processing

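The calls of Hoxa3, Hoxa4, Hoxa5, Hoxc4, Hoxc8 and Hoxd8 kept their direction and stayed past the threshold under every alternative that used the array files and tested the gene. Hoxc4 and Hoxb6 were not tested where presence on all 6 arrays was asked for. That left 8 Hox genes with a median difference of 0.26. Of these, Hoxa3, Hoxa4 and Hoxa5 were called higher in brown and Hoxb3, Hoxc8 and Hoxd8 higher in white. Of all genes 33.4% were then called higher in brown and 31.9% higher in white. The median moved to -0.46 with the deposited scaling and -0.46 with spike-in scaling. The not called Hoxb7 then turned sign, to -0.071 and -0.070. The not called Hoxa2 turned to 0.0012 with 64 units added, to 0.18 without brown replicate 3 and to 0.017 without white replicate 2, over a range of -0.18 to 0.18 with 1 array left out. Leaving out 1 array gave 3 to 4 Hox genes higher in brown, 3 to 5 higher in white and medians of -0.16 to 0.18, and the lowest count, 3, was without white replicate 3, where Hoxb3 and Hoxb6 were lost. With the replicate block 4 were higher in brown and 5 in white, Hoxc5 being the added call, and the arrays share only a number, since not every array correlated best with the array of its own number. Detected Hox genes were 8 to 9 in brown and 12 to 16 in white over the detection rules.

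In the series table, read as its columns are named, 5 Hox genes were called higher in brown. Hoxa2, Hoxa4, Hoxa5, Hoxb1 and Hoxb3 were called higher in white. Of all genes 38.2% were then called higher in brown and 32.5% higher in white. Signs turned for Hoxa3 (-0.0046), Hoxa4 (-2.50), Hoxa5 (-1.41), Hoxb1 (-1.64), Hoxb6 (0.83), Hoxb7 (-0.50), Hoxc4 (0.48), Hoxc6 (0.20), Hoxc8 (4.80) and Hoxd8 (1.18). The cause was not tested.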

Other observations

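The series table and the array files did not differ by tissue order alone. Hoxa2, Hoxb3 and Hoxc5 kept the sign of the array files in the table while the other 10 tested Hox genes turned. The Hoxb3 probe set had 316, 322 and 350 in the brown columns of the table and 437, 450 and 462 in its white columns, against deposited array signals of 48.7, 41.6 and 48.1 in brown and 88.7, 111 and 138 in white. One Hoxd13 probe set was absent on every array, with deposited signals of 2.2, 1.3 and 1.7 in brown and 1.6, 2.2 and 5.1 in white. In the table the same probe set had 784, 863 and 2213 in brown columns and 1597, 2210 and 882 in white columns.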
